A study of Homo sapiens with 6 samples.

Results

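The annexins are a family of calcium-dependent membrane-binding proteins, and 8 of their genes (ANXA1, ANXA2, ANXA3, ANXA4, ANXA5, ANXA6, ANXA7 and ANXA11) were followed here in a count table of long cDNA reads. Their rows were taken by gene symbol and the counts were summed per gene identifier, which gave 8 genes of 10072, 39 transcript models of 21472 and 6925 counts of 6784575. The cells were Calu-6, an established human lung carcinoma line labelled wild type. All of them had been transfected for 48 h at 10 nM with RNAiMAX, a lipid reagent, carrying either siControl, a non-silencing siRNA, or siDelta2-4, an siRNA aimed at the joint between exons 1 and 5 in a splice form of the telomerase gene TERT. Each group had 3 libraries, and the comparison asks which genes differed when this splice form was targeted. The columns of the table also carried the word that the study used for cells with an empty expression vector, and the methods of the study describe lines stably carrying an empty Flag-V5 vector or the splice form, whereas the labels give no vector.

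Every annexin joins a conserved core, which binds acidic phospholipids such as phosphatidylserine when calcium is present, to an N-terminal stretch that differs between members and binds partner proteins. Through these parts annexins take part in sealing torn plasma membrane, in endosome and exosome traffic, and in linking membrane to actin. ANXA1 is known for anti-inflammatory signalling and as a partner of S100A11, and ANXA2 forms a complex with S100A10 that binds plasminogen at the cell surface. Both are commonly abundant in epithelial carcinoma cells.

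Because the partner-binding stretch sits at the very start of these proteins, the first coding bases of the most counted transcripts are shown for ANXA1, ANXA2 and ANXA5. They were read from the Gencode transcripts on GRCh38, with the start codon in capitals. The ANXA1 bases lie on the forward strand at chr9:73158536-73158595, within 1 exon. Those of ANXA5 (chr4:121686322-121696589) and of ANXA2-204 (chr15:60382430-60386075) lie on the reverse strand, each split over 2 exons. ANXA2-201, a rare form, is shown for the 54 coding bases (18 codons, chr15:60386076-60397913) that it places before the ANXA2-204 start.
ANXA1-201: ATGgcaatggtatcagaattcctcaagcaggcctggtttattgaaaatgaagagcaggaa
ANXA5-201: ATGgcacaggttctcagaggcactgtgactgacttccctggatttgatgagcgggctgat
ANXA2-204: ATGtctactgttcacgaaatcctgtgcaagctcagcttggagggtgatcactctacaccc
ANXA2-201: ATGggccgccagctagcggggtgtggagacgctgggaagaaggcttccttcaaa

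Library totals were 1037468 to 1106413 counts in siControl and 1070009 to 1309241 in siDelta2-4, and below each library is named by its total within the group (highest, middle, lowest). The mean length of the counted models was 1011.0 to 1042.3 nt in siControl and 1044.9 to 1063.4 nt in siDelta2-4, so the groups did not overlap in length. TERT had 0 rows in the table, so no check of the knockdown was made. Every row of the table had at least 1 count in siDelta2-4, so a transcript counted in siControl alone cannot be seen. In edgeR's quasi-likelihood test with Benjamini-Hochberg adjustment over 3888 genes, 504 (13%) were called at an adjusted p under 0.1. Of these, 272 (7.00%) were higher and 232 (5.97%) lower in siDelta2-4, and this split depended on the processing. There were 361 higher and 152 lower with library totals alone, 249 and 265 with DESeq2 size factors, 194 and 283 with each library's trend on transcript length removed, and 93 and 161 with the DESeq2 Wald test. The keratins KRT8 and KRT18 and the mesenchymal filament gene VIM had 114 to 231 counts in each library, while KRT19 had 1 count and EPCAM 13 in all. Of 12 markers of leukocytes, endothelium, fibroblasts and erythroid cells, 3 had rows, with summed counts of 1 to 2 per siControl library and 1 to 6 per siDelta2-4 library.

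ANXA1 rose in siDelta2-4, and it was the 1 annexin called of the 4 that had enough counts to be tested. ANXA2, which held 67.8% of all annexin counts, and ANXA5 and ANXA7 were not called. The 4 genes not tested held 1 to 39 counts each over the 6 libraries. The share of 1 in 4 stands beside 13% of all tested genes, and with 4 genes it gives no result about the family. The median log2 fold change was 0.43 over the 4 tested annexins and 0.027 over all 3888 genes. With 4 genes this median lies between ANXA5 and ANXA7, neither of them called, and it too gives no result about the family. Of the 4, 3 were above 0, and ANXA2 stood at -0.12.

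ANXA1 (ENSG00000135046.14, chr9:73151865-73170393, forward strand) was counted 131, 126 and 177 times in the siControl libraries of highest, middle and lowest total. In the siDelta2-4 libraries of highest, middle and lowest total it had 268, 284 and 222. On TMM-scaled totals this was 128, 121 and 170 counts per 1000000 (CPM) in siControl and 206, 231 and 208 CPM in siDelta2-4. All 3 siDelta2-4 libraries lay above all 3 siControl libraries, and the nearest to them was the siControl library of lowest total. Of all tested genes, 26.0% had groups that did not overlap in either direction. The mean went from 139 ± 26.4 to 215 ± 13.9 CPM (SD, n = 3 each), which is 0.62 ± 0.12 (SE) on the log2 scale or 1.54-fold (edgeR adjusted p = 0.00185), with a 95% confidence interval of 0.37 to 0.88. It ranked 54 by p among the genes tested. In bulk libraries such as these, more cells with the transcript and more transcript per cell cannot be told apart. ANXA1 was called in each of the 18 other ways of processing the counts, with log2 fold changes of 0.53 to 0.77 when a library was left out and 0.47 after a trend on transcript length was removed (adjusted p = 0.00808).

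**Figure D1:**
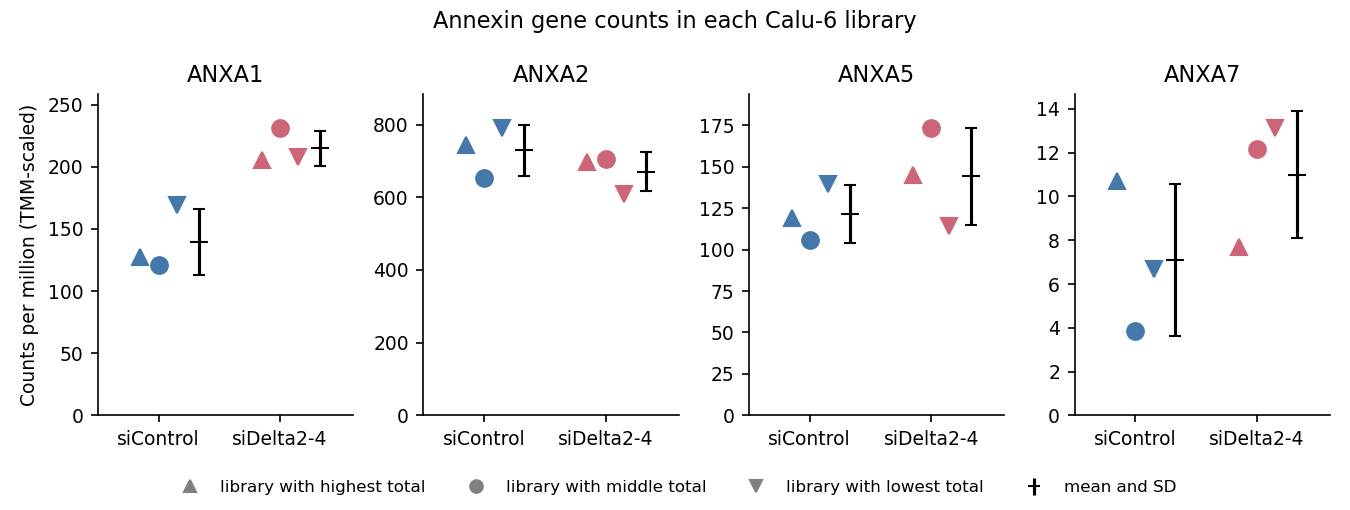
CPM on TMM-scaled totals (vertical axes, each starting at 0) of the 4 tested annexins in every siControl and siDelta2-4 library; marker shape gives the library's rank by total within its group, and bars give the mean and SD of 3 libraries. The siDelta2-4 libraries sit at 206 to 231 CPM for ANXA1, above the siControl libraries at 121 to 170 CPM, while the groups overlap for ANXA2, ANXA5 and ANXA7.

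Almost all ANXA1 reads were of 1 transcript. ANXA1-201, the MANE Select form with 13 exons and 1401 nt, held 90.7% of the gene's counts. Its counts were 118, 117 and 162 in siControl, against 242, 255 and 202 in siDelta2-4 (highest, middle and lowest total), so its groups did not overlap. Its mean rose from 128 ± 26.2 to 199 ± 14.3 CPM, by 0.63 ± 0.13 on the log2 scale (edgeR adjusted p = 0.00395 over 6768 models). ANXA1-202 encodes the same 1038 coding bases but begins in the intron before the first coding exon, with a first exon of 948 bases at chr9:73157654-73158601. Its counts were 9, 9 and 12 in siControl, against 19, 26 and 13 in siDelta2-4, a log2 fold change of 0.76 ± 0.33 (adjusted p = 0.219). ANXA1-207, a transcript without a defined coding sequence, had 7 siControl counts and 17 from siDelta2-4 and was not tested. The share of ANXA1-201 within the gene was 91.5% ± 1.39 in siControl and 90.4% ± 0.60 in siDelta2-4, and the test of transcript usage gave an unadjusted p of 0.708 (edgeR adjusted p = 0.933).

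ANXA2 (ENSG00000182718.18, chr15:60347134-60402883, reverse strand) was the most counted annexin in every library. Its counts were 764, 681 and 824 in siControl, against 909, 867 and 651 in siDelta2-4 (highest, middle and lowest total). These were 745, 653 and 789 CPM against 698, 704 and 610 CPM. The groups overlapped: the siControl library of middle total lay below the highest and middle siDelta2-4 libraries. The means were 729 ± 69.5 and 671 ± 52.9 CPM, at -0.12 ± 0.09 on the log2 scale (edgeR adjusted p = 0.455) with a 95% confidence interval of -0.31 to 0.07. With the trend on transcript length removed ANXA2 was called lower, at -0.28 (adjusted p = 0.0287), and it was called under no other setting.

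ANXA2 reads fell on 22 transcript models, more than for any other annexin. ANXA2-204, the MANE Select form with 13 exons and 1554 nt, held 63.9% of them, with 62.6% to 65.2% in each library. The 2 next models were not in the annotation: TALONT000538109, a new combination of known splice sites with 13 exons and 1570 nt, held 11%, and TALONT000538117, which matches part of a known transcript and lacks its 5′ end, held 8.8%. ANXA2-203, with 6.7%, has the same 1017 coding bases as ANXA2-204 and an added untranslated exon of 81 bases at chr15:60397258-60397338. Its last exon is shorter, at 348 bases against 539, and its length is 1444 nt. Of the 22 models 6 could be tested and none was called, with adjusted p of 0.515 to 0.983. ANXA2-204 went from 474 ± 54.3 to 436 ± 30.2 CPM (log2 fold change -0.12 ± 0.09, edgeR adjusted p = 0.551). TALONT000538117 went from 56.6 ± 6.84 to 67.0 ± 18.3 CPM (0.26 ± 0.19, adjusted p = 0.515). ANXA2-201, the form with 18 added codons shown above, had 4 siControl counts and 13 from siDelta2-4 and was not tested. Transcript usage within ANXA2 had an unadjusted p of 0.641 (edgeR adjusted p = 0.929).

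A pseudogene inside ANXA2 shares its region. RPL36AP44, a processed pseudogene of a ribosomal protein gene, is annotated as 312 bases on the forward strand at chr15:60390371-60390682, within the ANXA2-204 intron chr15:60386087-60397942, and overlaps no exon of the counted annotated ANXA2 transcripts. The table gave it 3803 counts on 9 models, none of them known. Models of 11 to 14 exons held 96.7% of these counts, although the annotated pseudogene is a short single span. The most counted of them had 13 exons and 1571 nt, beside 13 exons and 1570 nt for TALONT000538109 of ANXA2. Whether counting used strand is not given in the sources used here, so reads of ANXA2 and RPL36AP44 cannot be told apart here. RPL36AP44 had 575 ± 77.7 CPM in siControl and 556 ± 59.5 in siDelta2-4, a log2 fold change of -0.05 ± 0.10 (edgeR adjusted p = 0.826). With the counts of both genes summed, a fit added after the data were seen, the log2 fold change was -0.09 ± 0.09 (adjusted p = 0.594).

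ANXA5 (ENSG00000164111.15, chr4:121667946-121696995, reverse strand) encodes the phosphatidylserine-binding protein used to stain dying cells. Its counts were 122, 110 and 146 in siControl, against 189, 213 and 122 in siDelta2-4 (highest, middle and lowest total). On the CPM scale these were 119, 105 and 140 against 145, 173 and 114. The highest and middle siDelta2-4 libraries lay above all siControl libraries, and the lowest lay among them. The means were 121 ± 17.3 and 144 ± 29.4 CPM, at 0.25 ± 0.14 on the log2 scale (edgeR adjusted p = 0.276) with a 95% confidence interval of -0.03 to 0.54. Without the siControl library of lowest total ANXA5 was called higher, at 0.35 (adjusted p = 0.0570). With the length trend removed the value was 0.089.

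ANXA5-201, the MANE Select form with 13 exons and 1638 nt, held 91.0% of the ANXA5 counts. Its share per library was 94.3%, 94.5% and 93.2% in siControl and 92.1%, 89.2% and 83.6% in siDelta2-4. The remaining counts lay on 5 models, of which TALONT000729901 had 9 siControl counts and 19 from siDelta2-4, and TALONT000729677, with a splice site outside the annotation, had 5 and 20. Unannotated models were in the table only where each siDelta2-4 library had at least 5 counts, so the direction of these 2 models was fixed in part by that rule. ANXA5-207, an annotated retained-intron transcript not under that rule, had 8 siControl counts and 15 from siDelta2-4. ANXA5 had 1 model with enough counts, so its transcript usage was not tested. ANXA5-201 itself had a log2 fold change of 0.20 ± 0.15 (edgeR adjusted p = 0.530).

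**Figure D2:**
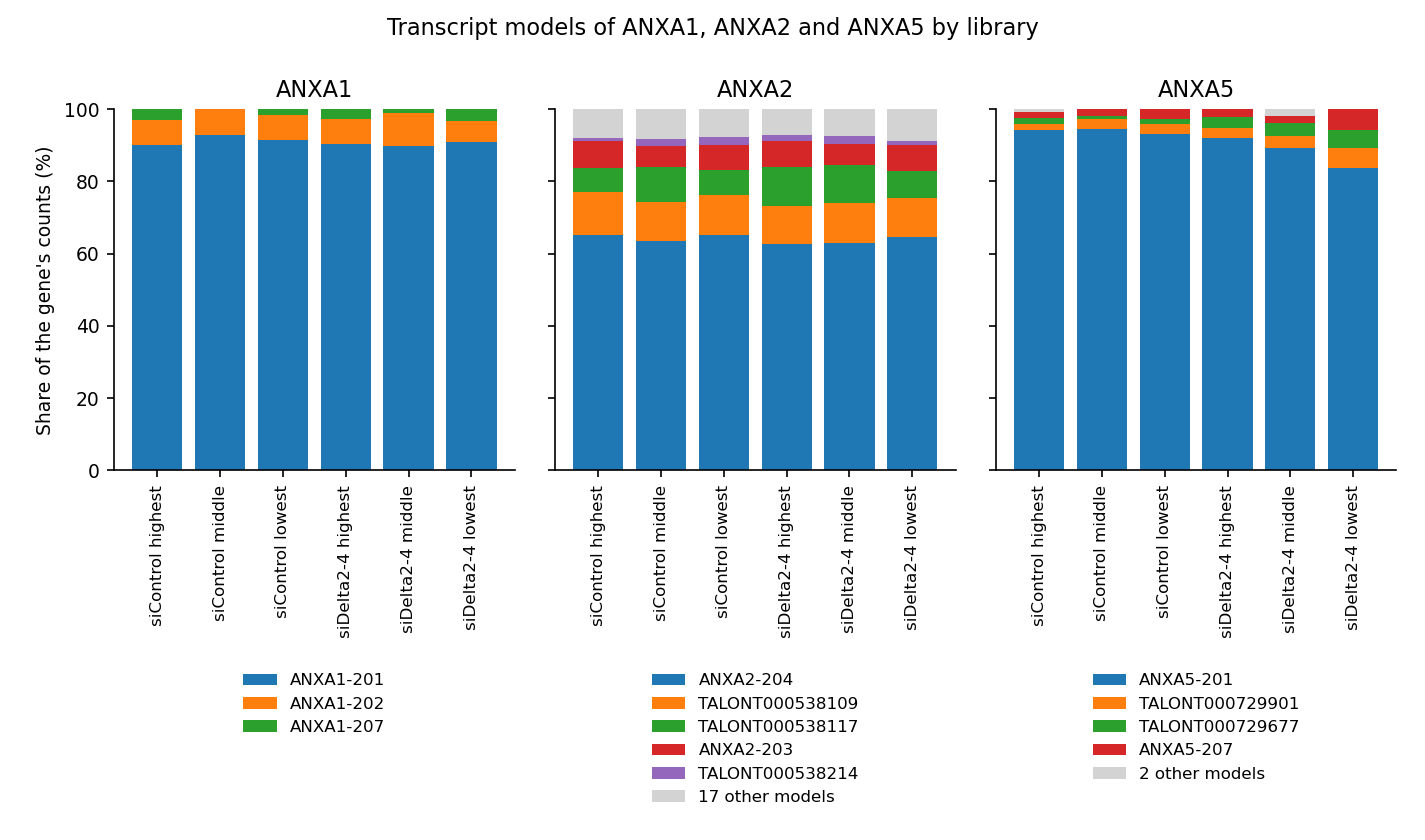
Share of each gene's counts (percent, vertical axis) on its transcript models in every library of siControl and siDelta2-4, with libraries named by total within the group. ANXA1-201 and ANXA5-201 hold over 80% of their gene in each library, and ANXA2-204 holds 62.6% to 65.2%.

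ANXA7 and ANXA11 have long hydrophobic N-terminal stretches that bind the calcium sensors sorcin (SRI) and PDCD6. ANXA7 (ENSG00000138279.16, chr10:73375101-73414076, reverse strand) was counted on 1 model, ANXA7-202, with siControl counts of 11, 4 and 7, against 10, 15 and 14 in siDelta2-4 (highest, middle and lowest total). It passed the filter through 3 libraries, 1 of siControl and 2 of siDelta2-4. The groups overlapped, with means of 7.09 ± 3.46 and 11 ± 2.91 CPM and a log2 fold change of 0.61 ± 0.39 (edgeR adjusted p = 0.368). The value was close to that of ANXA1, while the SE was 0.39 against 0.12, and ANXA7 had 61 counts in all. ANXA11 (chr10:80150889-80205572), a carrier of RNA granules on lysosomes, had 1 count, in siDelta2-4, on a retained-intron transcript.

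**Figure D3:**
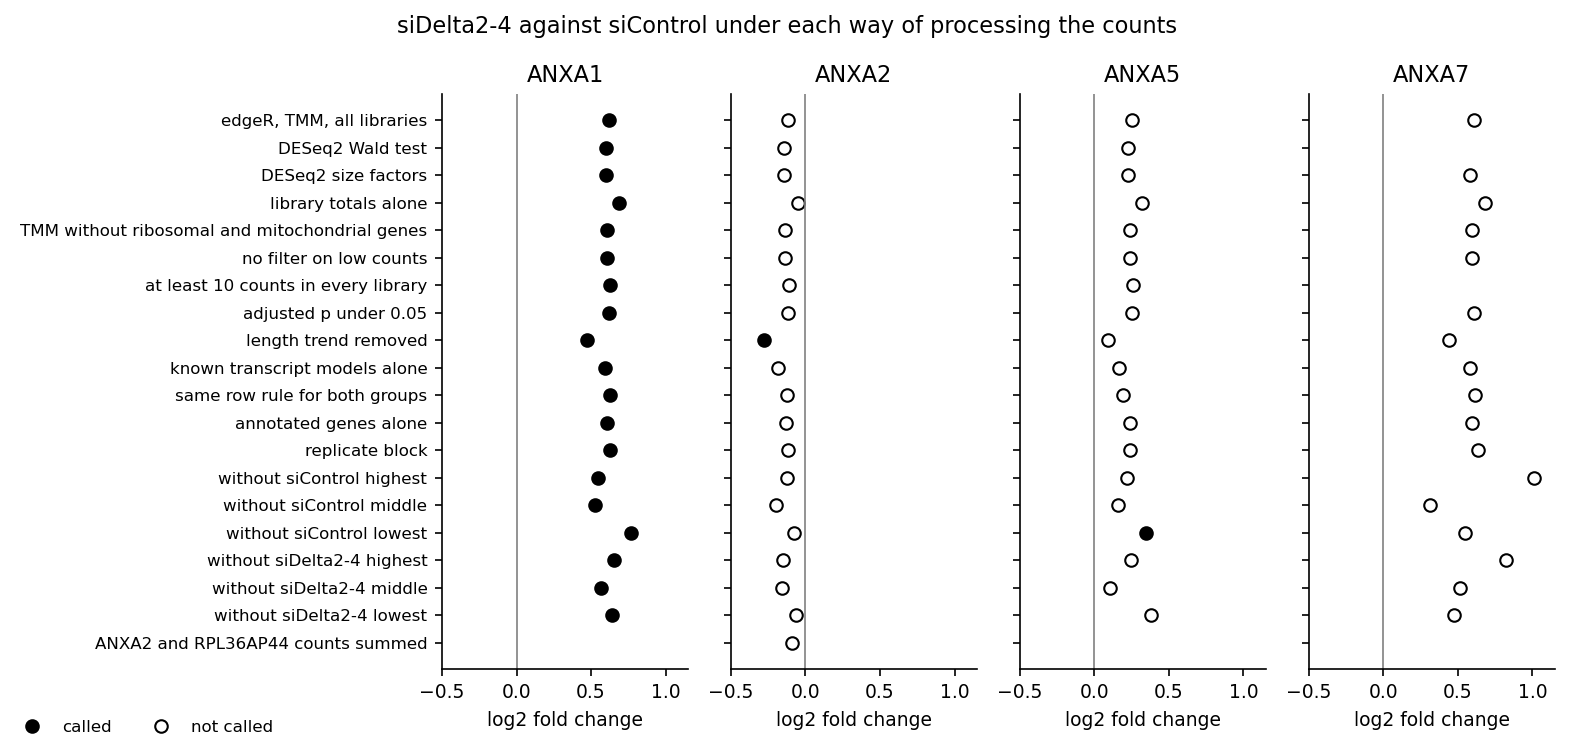
Log2 fold change (horizontal axis) of the 4 tested annexins under each way of processing the counts, 1 per line; filled points were called. ANXA1 stays at 0.47 to 0.77 and is called on every line, ANXA2 is called once, with the length trend removed, and ANXA5 once, without the siControl library of lowest total.

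The other 3 members could not be tested. ANXA6 (chr5:151100706-151157815), which has a duplicated core and works in endosome traffic, had siControl counts of 6, 3 and 4, against 10, 10 and 6 in siDelta2-4. Of its 39 counts 20 were on ANXA6-201, the MANE Select form of 26 exons. ANXA4 (chr2:69644425-69827112), an epithelial member, had 2 counts in each siControl library and 3, 5 and 1 in siDelta2-4, most of them on ANXA4-201. ANXA3 (chr4:78551747-78610451) had 0 siControl counts and 3 from siDelta2-4, all on ANXA3-201. A count of 0 in siControl allows up to 3 counts in 3221436, or 0.931 CPM, so no difference was detectable for ANXA3 or ANXA11 at this depth. This limit covers counting error only, since PCR reads are not independent molecules.

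Other members of the family were looked for by symbol. ANXA8, ANXA8L1, ANXA9, ANXA10, ANXA13 and the ANXA2 retrocopies ANXA2P1 and ANXA2P3 had 0 rows. The retrocopy ANXA2P2 (chr9:33624274-33625293) had 31 counts, 20 in siControl and 11 in siDelta2-4, and as a near copy of ANXA2 its reads are uncertain. ANXA2R, which encodes a receptor for the ANXA2 complex, had 59 counts and a log2 fold change of -0.06 ± 0.37 (edgeR adjusted p = 0.949).

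Levels between genes were compared as mean CPM. Each count is a long read assigned to a transcript model, so counts were not divided by model length. In siControl the order was ANXA2 (729 CPM), ANXA1 (139), ANXA5 (121) and ANXA7 (7.09). In siDelta2-4 the order was the same, at 671, 215, 144 and 10.99 CPM. The neighbours ANXA1 and ANXA5 overlapped in siControl, at 121 to 170 and 105 to 140 CPM. They did not overlap in siDelta2-4, at 206 to 231 and 114 to 173 CPM.

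The balance between the abundant members was then compared within each library, where scaling plays no part. The 3803 counts of RPL36AP44, which cannot be told apart from ANXA2 reads here, are not in the ANXA2 counts. The level of each ratio or share that uses ANXA2 depends on where those reads belong. A like limit holds for ANXA1, since the 1170 counts of TALONG000074156 are not in the ANXA1 counts. Whether this antisense gene shares reads with ANXA1 was not tested, so ratios and shares that use ANXA1 can depend on it. ANXA1 had 0.171, 0.185 and 0.215 counts per ANXA2 count in siControl and 0.295, 0.328 and 0.341 in siDelta2-4 (highest, middle and lowest total). The groups did not overlap, at 0.190 ± 0.022 against 0.321 ± 0.024 (SD, n = 3 each). An exact permutation test, two-sided, gave p = 0.1, which is as low as 3 libraries against 3 can go. ANXA5 counts per ANXA2 count were 0.166 ± 0.010 and 0.214 ± 0.030, and ANXA1 counts per ANXA5 count were 1.14 ± 0.07 and 1.52 ± 0.26, also without overlap and each at the smallest exact permutation p. The ANXA5 counts include unannotated models, which had to reach 5 counts in each siDelta2-4 library. The lack of overlap in ANXA5 counts per ANXA2 count can depend on that rule. In ANXA1 counts per ANXA5 count these models enlarge the divisor, and more so in siDelta2-4. There TALONT000729901 and TALONT000729677 had 19 and 20 counts, against 9 and 5 in siControl, which lowers that ratio in siDelta2-4. On known models alone the ANXA5 log2 fold change was 0.17, and with an equal rule on rows 0.19, beside 0.25. These 3 ratios were chosen after the values were seen, and they share counts with each other. Adjusted over them each p stayed at 0.1, which had to be so because all 3 were at the smallest exact permutation p. ANXA1 made up 13.8% ± 1.32 of annexin counts in siControl and 20.5% ± 1.26 in siDelta2-4, and ANXA2 72.8% ± 1.51 and 63.8% ± 1.67.

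The share of all counts held by the 8 annexins together was 0.0936%, 0.0859% and 0.112% in siControl and 0.106%, 0.118% and 0.0951% in siDelta2-4 (highest, middle and lowest total). The groups overlapped, at 0.0971% ± 0.0133 and 0.106% ± 0.0114 (exact two-sided permutation p = 0.4, n = 3 each). Known models held 81.0% ± 1.10 and 81.7% ± 0.87 of annexin counts (exact permutation p = 0.5, n = 3 each), beside 44.9% ± 0.33 and 45.6% ± 0.67 of all counts. The mean length of the counted annexin models was 1536 ± 5.06 nt in siControl and 1543 ± 4.33 nt in siDelta2-4 (exact permutation p = 0.3, n = 3 each), and the groups overlapped, unlike for the models of all genes. Of 10 annexin models tested 1 was called, against 6.91% of all 6768 models. Of 2 annexin genes in edgeR's usage test 0 were called and 0 had an unadjusted p under 0.05, against 7 called (0.618%) of 1132 genes.

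The partners of annexin N-termini include small EF-hand proteins, and in most of these, though not in all, calcium binding opens a docking groove. Of 13 listed, 12 had rows and 10 were tested. Of these 1 was called higher and 2 lower, beside 7.00% and 5.97% of all tested genes, and with 10 genes this gives no result about the list. The median log2 fold change was 0.050. S100A10, the partner of ANXA2, fell from 1344, 1395 and 1328 CPM to 1126, 1078 and 1178 CPM (highest, middle and lowest total), with every siDelta2-4 library below every siControl library. The log2 fold change was -0.27 ± 0.08 (edgeR adjusted p = 0.0338). It was called in 3 of the 6 fits that left out a library, and with the length trend removed the value was -0.18 (adjusted p = 0.0852). S100A16 fell by 0.35 on the log2 scale (SE 0.12, adjusted p = 0.0685), from 151 ± 12.7 to 119 ± 10.6 CPM, and was called in 2 of 6 fits without a library. The call was lost with library totals alone (-0.29, adjusted p = 0.160) and with DESeq2 (-0.38, adjusted p = 0.111). S100A11, the partner of ANXA1, had 1115 ± 82.6 and 1163 ± 34.8 CPM (0.06 ± 0.08, adjusted p = 0.710). Reads of S100A11 and of the annotated gene on its other strand, ENSG00000229021 with 7858 counts, cannot be told apart.

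Among the partners that bind ANXA7 and ANXA11, PDCD6 rose from 38.9 ± 4.05 to 57.6 ± 6.11 CPM, without overlap, by 0.56 ± 0.18 on the log2 scale (edgeR adjusted p = 0.0540). It was called in 2 of 6 fits without a library, and it was not called with the length trend removed (0.40, adjusted p = 0.196) or with DESeq2 (0.54, adjusted p = 0.155). SRI had 79.3 ± 6.04 and 96.9 ± 6.89 CPM, a log2 fold change of 0.29 ± 0.14 (adjusted p = 0.212).

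Genes of the processes in which annexins act were counted from lists. Of 31 plasma membrane repair genes, 16 had rows, 8 were tested and 1 was called, a share close to the 13% of all tested genes, with a median log2 fold change of 0.25. The called gene was ACTG1, cytoplasmic gamma-actin, which rose from 304 ± 8.60 to 408 ± 21.9 CPM (0.42 ± 0.09, edgeR adjusted p = 0.00543) and was called in all 6 fits without a library. With the length trend removed it stood at 0.26 (adjusted p = 0.0799), still called. Its close paralog ACTB stood at 0.15 (adjusted p = 0.336). Of 10 plasminogen activation genes 4 were tested and 1 was called, beside 13% of all tested genes, and 4 genes give no result about the list. The called gene, SERPINB6, an intracellular protease inhibitor, rose from 9.30 ± 3.59 to 19.7 ± 4.50 CPM (1.06 ± 0.33, adjusted p = 0.0476, called in 3 of 6 fits without a library), and with the length trend removed it stood at 0.90 and just missed the threshold (adjusted p = 0.102). SERPINB6 had 99 counts in all, and DESeq2 gave it no adjusted p. The filter asked for 9.16 CPM in 3 libraries. In siControl SERPINB6 had 6.82, 13.4 and 7.66 CPM, against 15.3, 19.5 and 24.3 in siDelta2-4 (highest, middle and lowest total). It was therefore tested through the group where it was higher, which limits its call. PLAUR, the urokinase receptor, stood at 0.47 (adjusted p = 0.106) and was called with library totals alone (0.54, adjusted p = 0.0772). ENO1, which encodes an enolase that also binds plasminogen, stood at -0.10 (adjusted p = 0.557) and was called lower with the length trend removed (-0.27, adjusted p = 0.0386). Of 20 genes of phosphatidylserine exposure and transport 5 had rows and 0 could be tested. Of 13 endosome and stress granule partners 9 had rows and 1, RAB7A, was tested and not called (adjusted p = 0.979).

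**Figure D4:**
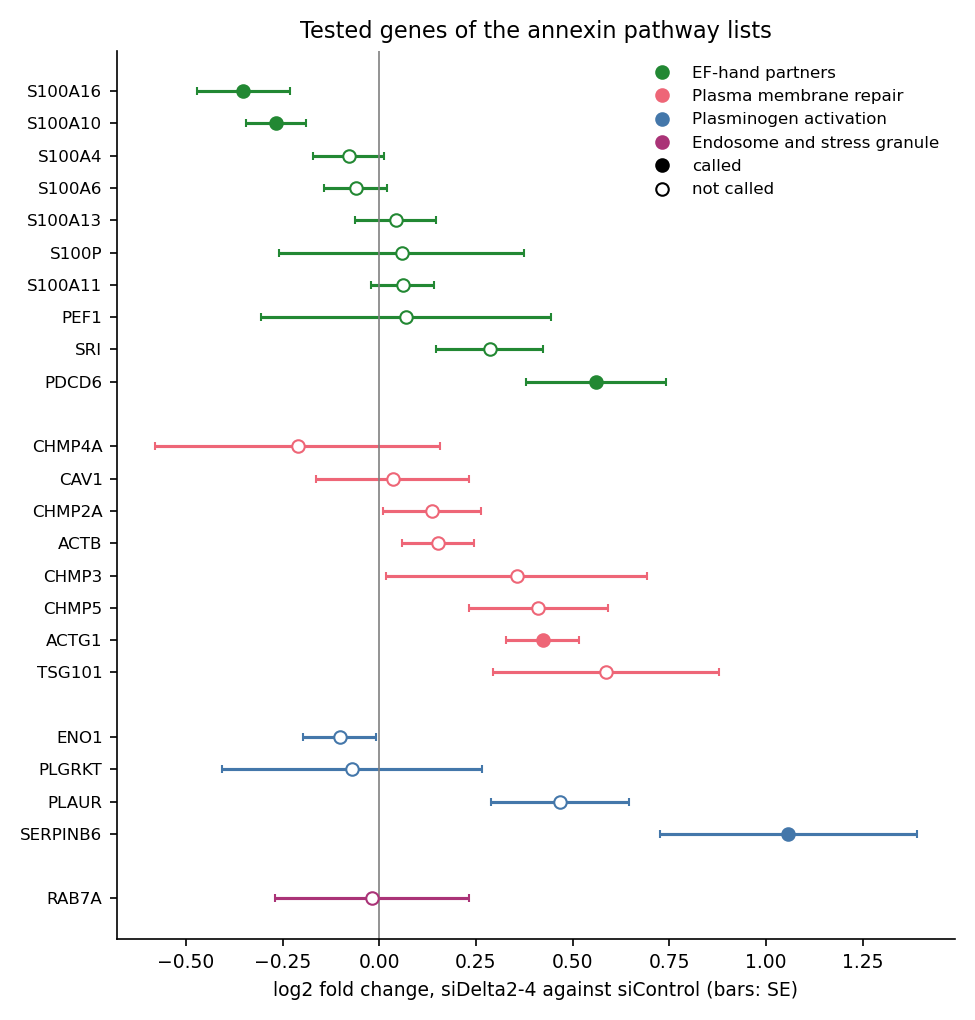
Log2 fold change of siDelta2-4 against siControl (horizontal axis, bars give the SE) for every tested gene of the 4 lists with a tested member; filled points were called at an adjusted p under 0.1. S100A10 and S100A16 lie below 0, and PDCD6, ACTG1 and SERPINB6 above it.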

How the data were processed

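Long-read PCR-cDNA libraries of Calu-6 cells, 3 per group, had been run on a flow cell for 72 h. The values are whole-number counts per transcript model, deposited without normalisation. Per the labels and methods the authors aligned reads with minimap2 2.14, used SAMtools 1.13, corrected reads and annotated them with TALON against Gencode 44 (GRCh38.p14). Model lengths (nt) and exon numbers were also deposited. Every unannotated model had at least 5 counts in each siDelta2-4 library. The study calls the libraries biological replicates, but the labels do not tie them to separate cultures, so p-values measure only the spread between these libraries. Column names gave the group but not the sample, and no column was left unused.

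Counts summed per gene entered edgeR 4.0.16 (R 4.3.3) after filterByExpr and TMM scaling (two-sided quasi-likelihood test, no covariate, Benjamini-Hochberg over all genes, called at an adjusted p under 0.1). The SE is the log2 fold change over the square root of F. Models were tested likewise, and usage with diffSpliceDGE. Ratios and shares had exact permutation tests. Alternatives were the DESeq2 1.42.0 Wald test and size factors, library totals, TMM without ribosomal protein and mitochondrial genes, other count filters, an adjusted p under 0.05, a loess trend on length removed (span 0.4), known models alone, an equal rule on rows in both groups (5 or more counts of an unannotated model in each of the 6 libraries, and a count of a known model in each group), annotated genes alone, a block on the column number, and each library left out. The scripts were tested on simulated data. Gene positions and the printed sequences are from Gencode 44.

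The members, lists and tests were chosen with earlier results of these data known. Named were all 8 members, other annexins, each listed gene that was called, the direct partners S100A10, S100A11, PDCD6 and SRI, the 3 genes most like the summed annexins, and the 3 most counted models of a member. Other genes and models were named after their values were seen. Part of the list of EF-hand partners is not reported here.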

Additional observations from a re-analysis of the deposited data

How the results depend on the processing

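ANXA1 was called, and its model ANXA1-201 alone among annexin models, under every alternative run. Of the alternatives, 2 moved the number of annexin genes called from 1 to 2. With the length trend removed ANXA2 was added, at -0.28 (adjusted p = 0.0287, range over its alternatives 0.0287 to 0.796). Without the siControl library of lowest total ANXA5 was added, at 0.35 (adjusted p = 0.0570, range 0.0570 to 0.786). With each library left out in turn, 1 to 2 annexin genes, 1 annexin model and 0 genes with changed usage were called, and log2 fold changes were 0.53 to 0.77 for ANXA1, -0.20 to -0.062 for ANXA2, 0.10 to 0.38 for ANXA5 and 0.31 to 1.01 for ANXA7. The log2 ratio of the annexin share between groups was 0.13, with 0.051 to 0.24 when a library was left out and 0.68 as the median over the 8 genes, where 4 had under 40 counts. In this median ANXA3 and ANXA11, with 0 siControl counts, entered as unbounded rises. Every row needed a siDelta2-4 count, so their direction was fixed by that rule and the median is raised by it. Over all genes 504 were called, against 254 with the DESeq2 Wald test, 304 at an adjusted p under 0.05, 252 on known models (of 1854 tested), 299 with the replicate block and 194 to 1041 when a library was left out, the highest without the siControl library of lowest total. The cause of these changes was not tested. DESeq2 gave no adjusted p for ANXA7, which had too few counts for a fit with at least 10 counts in every library. Columns of equal number did not deviate together (correlations of 0.039, -0.136 and -0.084 over 3888 genes). Many genes have few counts, so this cannot settle whether libraries of equal number were prepared together. With the replicate block 1 annexin gene, 1 annexin model and 0 usage genes were called, and ANXA1 stood at 0.63 on the log2 scale (adjusted p = 0.0104), while S100A16 (adjusted p = 0.122) and PDCD6 (adjusted p = 0.105) were no longer called. Depth limits the 4 untested members and the rare models: 19 of 39 annexin models had 20 counts or fewer.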

Other observations

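An unannotated gene that TALON placed antisense to some annotated gene had a model of the same shape as ANXA1-201. The model, of TALONG000074156, had 13 exons and 1401 nt, and was the 1 antisense model in the table with both values. Of all annotated transcripts in Gencode 44, 2 have this exon number and length, and ANXA1-201 is 1 of them. Its counts were 98, 109 and 162 in siControl, against 243, 278 and 181 in siDelta2-4 (highest, middle and lowest total). TALONG000074156 had a log2 fold change of 0.70 ± 0.14 (edgeR adjusted p = 0.00180). No position was used for this gene, so whether it lies opposite ANXA1, and whether it shares reads with it, was not tested. The choice of this gene was made with its values known.

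The genes whose profile over the 6 libraries lay nearest to that of the summed annexins were TSPAN31, a tetraspanin (Euclidean distance of centred log2 CPM 0.092), HSPA8, a constitutive chaperone (0.110), and ENSG00000224794 (0.121), beside a median of 0.617 over all genes. None of them was called (edgeR adjusted p of 0.933, 0.551 and 0.660).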
